A study of Mus musculus with 3 samples.

Results

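Whole mixtures of kidney cortex cells were compared between a library made after sham surgery (Sham) and one made 24 h into the response to severe ischemia-reperfusion injury (IRI) of both kidneys (IRI24h-TDN). Every barcode of these 2 libraries with at least 200 detected genes and at most 50% of its UMIs from mitochondrial genes was a member, where a UMI (unique molecular identifier) marks 1 captured RNA molecule. This gave 17071 of the 26760 cells kept in the whole series, 8047 from Sham and 9024 from IRI24h-TDN. The remaining 9689 kept cells belonged to IRI24h-TD, a library of tdT+ cells alone. All libraries came from WT1CreERT2; Rosa26-tdT fl/+ mice, in which tamoxifen lets a Cre recombinase driven from the Wt1 locus switch on the red fluorescent protein tdTomato (tdT) in Wt1-expressing cells, chiefly podocytes and parietal epithelial cells (PECs) of the glomerulus. Cells were enriched by fluorescence-activated sorting, and in both Sham and IRI24h-TDN tdT+ and tdT- cells were mixed 2:1 before capture on the BD Rhapsody platform. The mixing ratio therefore weighed on the share of podocytes and PECs. Tubular, vascular, stromal and blood cells were expected chiefly on the tdT- side. IRI24h-TD, of tdT+ cells alone, still held 155 cells (1.6%) that were classed as proximal tubule cells. Cells of several kidneys stood behind each library and cannot be told apart in it, and age and sex of the animals were not given in the sources used here. Each condition was 1 library, so no difference below has a replicate check, no test was run, and animal, surgery, dissociation and sequencing cannot be told apart. Intervals are 95% intervals and cover counting error only.

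Ischemia followed by reperfusion injures the proximal tubule first, since its cells (PTECs) depend on oxidative metabolism and tolerate oxygen shortage poorly. Injured tubule cells lose their transporters, begin to make injury proteins such as kidney injury molecule 1 (Havcr1) and lipocalin 2 (Lcn2), and may die and detach, while monocytes and macrophages enter the tissue. Podocytes form the filtration barrier and PECs line the capsule around it, and neither is the usual first target of this injury.

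Sequencing depth was of the same order in both libraries. The kept cells carried 65065819 UMIs in Sham and 88290370 in IRI24h-TDN, with a median of 7746 and 9151 UMIs per cell, 2653 and 3040 genes per cell, and 4.28% and 3.92% mitochondrial UMIs. After each cell was thinned to 1000 UMIs, leaving out 55 cells of Sham and 0 of IRI24h-TDN, the median number of genes expected per cell was 686.3 and 686.1. The limits removed 1547 and 444 barcodes for too few genes and 468 and 594 for mitochondrial UMIs. Both deposited tables had 10062 barcodes and 20800 genes, with 19424 genes in common and 1376 found in each table alone. The libraries shared 102 barcodes, of which 82 were kept in both, and 0 of these had identical counts. No tdTomato transcript was listed in the tables, so the label itself could not be counted.

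The cells fell into 11 classes, named with the ending "-like" from lists of marker genes. The largest class in both libraries was podocyte-like, and its marker list, which includes nephrin (Nphs1), took 41312.1 CPM (UMIs of a gene scaled to counts per 1000000, here over all UMIs of the class) in Sham and 36082.8 CPM in IRI24h-TDN. Every class had UMIs of each marker of its own list in both libraries, among them all 10 podocyte markers and all 14 PTEC markers. This cannot check the names, which were given from the same lists. All 10 podocyte markers also had UMIs in every other class. The PTEC-like class was the least secure after IRI, since its marker list took 60071.8 CPM in Sham and 9449.7 CPM in IRI24h-TDN.

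The 2 mixtures differed most in their tubular cells. PTEC-like cells made up 13.7% of Sham (13 to 14.5, 1106 cells) and 2.21% of IRI24h-TDN (1.91 to 2.53, 199 cells), a 6.23-fold lower share. The next segments of the nephron went the other way. Cells of the thick ascending limb, which reabsorbs sodium chloride, went from 1.54% (1.28 to 1.84, 124 cells) to 5.18% (4.73 to 5.65, 467 cells), 3.36-fold higher. Cells of the distal convoluted tubule, the site of the thiazide-sensitive transporter Slc12a3, went from 0.671% (0.505 to 0.875, 54 cells) to 5.12% (4.67 to 5.595, 462 cells), 7.63-fold higher. Intercalated-like cells took 2.24% of Sham and 3.87% of IRI24h-TDN (180 and 349 cells, 1.73-fold). The cluster with Aqp6 and Slc4a1 among its top genes held 133 and 154 of them, and the cluster led by Slc26a4 held 47 and 195. Connecting tubule and principal-like cells, which carry the water channel Aqp2, took 2.97% (2.61 to 3.37) and 3.79% (3.41 to 4.21), 1.28-fold, the smallest ratio among the 4 distal classes. These ratios depended on the limits set on cells. With at least 500 genes and at most 20% mitochondrial UMIs the log2 ratio was 1.74 for distal convoluted tubule-like cells (28 and 105 cells, against 2.93), 2.16 for ascending limb-like cells (34 and 170 cells, against 1.75) and 1.49 for intercalated-like cells (65 and 204 cells, against 0.79).

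Among the other classes, monocytic-like cells, the monocytes and macrophages, went from 4.16% (3.74 to 4.62, 335 cells) to 10.1% (9.48 to 10.7, 911 cells), 2.43-fold higher. Endothelial-like cells went from 2.49% (2.16 to 2.85, 200 cells) to 1.12% (0.913 to 1.36, 101 cells), 2.22-fold lower. Fibroblast-like cells were few, 81 and 40, with 1.01% (0.800 to 1.25) and 0.443% (0.317 to 0.603), and mesangial and mural-like cells took 3.55% and 5.06% (286 and 457 cells). PEC-like cells went from 9.93% (9.28 to 10.6, 799 cells) to 2.56% (2.24 to 2.91, 231 cells), 3.88-fold lower, while podocyte-like cells took 56.6% (55.5 to 57.6) and 59.2% (58.2 to 60.2). In all, 7 of the 11 classes had a higher share after IRI and 4 a lower one, and cells left without a name took 1.14% and 1.37%. Since the sort fixed the tdT+ side, the shares were also taken over the 2697 and 3452 cells that were neither podocyte-like nor PEC-like. This set need not be the tdT- side, since 347 of the 9689 cells of IRI24h-TD were neither as well. There PTEC-like cells took 41.0% (39.1 to 42.9) and 5.77% (5.01 to 6.60), 7.11-fold lower, distal convoluted tubule-like cells 2.002% and 13.4%, ascending limb-like cells 4.598% and 13.5%, and monocytic-like cells 12.4% and 26.4%. Connecting tubule and principal-like cells took 8.86% and 9.91%, with intervals that overlapped.

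**Figure D1:**
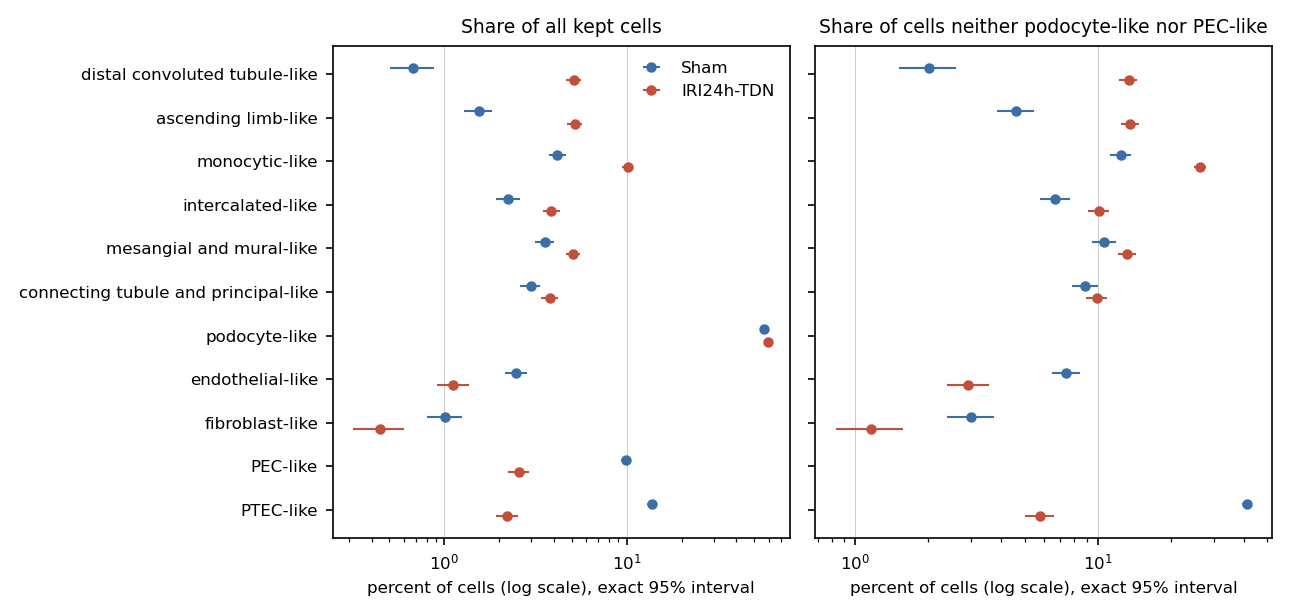
Percent of cells in each class (log axis) for Sham (blue) and IRI24h-TDN (red), over all kept cells on the left and over cells neither podocyte-like nor PEC-like on the right, with points for the share and bars for the exact 95% interval. PTEC-like cells sit at 13.7% and 2.21% of all cells, and distal convoluted tubule-like cells at 0.671% and 5.12%.

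A share of captured cells is not a number of cells in the kidney, because fewer PTECs in the tissue, PTECs lost in dissociation and PTECs that no longer carry their markers all lower it and cannot be told apart here. The class assignment bears on this value. When no correction between libraries was made, 12 of the 199 PTEC-like cells of IRI24h-TDN remained PTEC-like and 159 joined PEC-like clusters, and when each cell took the class of its highest marker score, 113 remained and 43 became PEC-like. The log2 ratio of the PTEC-like share, -2.64 as reported, was -6.65 in the first case (1072 and 12 cells) and -3.41 in the second (1102 and 116 cells), so its direction held and its size did not. That of the PEC-like share, -1.96, was -1.36 and -1.62 (910 and 397 cells, and 784 and 285 cells). The fibroblast-like cells of Sham were as unsure, since 6 and 16 of 81 remained under the same alternatives, and 73 and 57 became PEC-like. Of the 335 monocytic-like cells of Sham 267 and 270 remained. In the first case 68 were left without a name, and in the second 28 scored highest on the lymphocyte list. Both alternatives turned the direction of the fibroblast-like share, to a log2 ratio of 2.54 and 0.90, and without the correction between libraries that of the podocyte-like share turned as well, to -0.11.

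With the mixtures this different, a change in summed counts can reflect which cells were captured. Of 14505 genes with at least 50 UMIs in the higher library, 1149 were at least 2-fold higher in IRI24h-TDN (7.92% of those measured) and 1609 at least 2-fold lower (11.1%). A second value weighted every class equally in both libraries, with the mean of the 2 libraries' shares of UMIs as the weight, and is called standardised below. Cells left without a name did not enter it. The standardised value gave 801 of 14379 genes higher (5.57%) and 1275 lower (8.87%). Of the genes measured both ways, 678 were higher by both values, which was 59.6% of those higher in the summed counts and 84.6% of those higher after standardising. Another 460 were higher in the summed counts alone, and 250 of these had their highest level in monocytic-like cells. Among the lower genes 1062 were shared (69.2% and 83.3%), and of the 473 found in the summed counts alone 230 had their highest level in PTEC-like and 99 in PEC-like cells.

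Marker genes of the segments show what standardising does. Umod (uromodulin, the main protein of the ascending limb) had 65.95 CPM in Sham and 217.2 CPM in IRI24h-TDN, a log2 fold of 1.72, but its standardised log2 fold was -0.46. Slc12a3 went from 49.98 to 221.0 CPM (log2 fold 2.15, standardised -0.62). Both genes thus had more UMIs in the mixture after IRI and fewer per UMI of their own class. Slc12a1, the furosemide-sensitive transporter of the ascending limb, differed little in the mixture (122.6 and 105.5 CPM) and was at 8509.1 and 1789.5 CPM in ascending limb-like cells. Aqp2 was at 5523.0 and 5743.0 CPM in connecting tubule and principal-like cells.

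**Figure D2:**
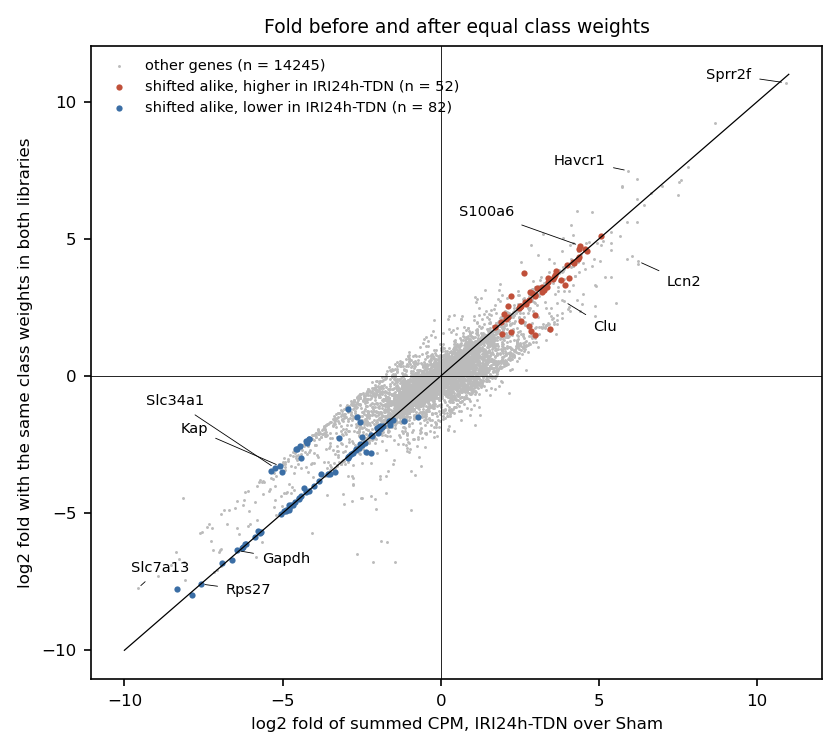
Log2 fold of IRI24h-TDN over Sham for each gene from summed counts (x axis) and with the same class weights in both libraries (y axis), with the 52 genes higher and the 82 genes lower in every measured class in colour and the other genes in grey. Umod (1.72 and -0.46) lies off the diagonal, while Gapdh (-6.45 and -6.36) lies near it.

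Of the 12 lowest genes 6 were proximal tubule genes. Slc7a13, an amino acid transporter of the late proximal tubule, had 164.5 CPM in Sham and 0.215 CPM in IRI24h-TDN (log2 fold -9.58, interval -10.31 to -8.94, standardised -7.74). The organic anion transporter Slco1a1 went from 128.1 to 0.680 CPM (log2 fold -7.56), Slc22a30 from 62.74 to 0.374, Slc22a28 from 65.04 to 0.430, the lactate transporter Slc5a8 from 60.12 to 0.668, and the methyltransferase Inmt from 76.66 to 0.498. For each of these 6 genes the standardised fold was smaller than the summed one but below -4 on the log2 scale. The rest of the 12 lowest genes were the ribosomal protein genes Rps29 (593.8 and 2.56 CPM), Rps27 (791.1 and 4.12), Rpl28 (499.6 and 4.1), Rps13 (645.3 and 6.71) and Rpl17 (686.4 and 8.79), and the glycolytic enzyme gene Gapdh (448.0 and 5.13).

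Injury and macrophage genes led the higher side. Lcn2, an iron-binding injury protein of the distal nephron, had 10.85 CPM in Sham and 812.7 CPM in IRI24h-TDN (log2 fold 6.23, interval 6.12 to 6.34, standardised 4.19). Havcr1, the proximal tubule injury marker, had 1.75 and 106.8 CPM (log2 fold 5.93, interval 5.66 to 6.21), and its standardised log2 fold of 7.48 was larger, since that value gives PTEC-like cells the same weight in both libraries. Osteopontin (Spp1) was the most abundant of these genes, at 444.4 and 6824.5 CPM (log2 fold 3.94, standardised 3.33). S100a6, a calcium-binding protein, went from 68.75 to 1440.5 CPM (4.39), and the metallothionein Mt2, which binds zinc, from 14.57 to 242.4 CPM (4.06). The macrophage genes Chil3 (1.57 and 102.9 CPM) and Msr1, a scavenger receptor (3.32 and 120.7 CPM), had log2 folds of 6.04 and 5.18, and of 4.39 and 3.62 after standardising. Sprr2f, a small proline-rich epithelial protein, had 1 UMI in Sham and 7769 in IRI24h-TDN, at 0.0154 and 88.0 CPM (interval of the ratio 1027 to 226169). The others of the 12 highest were Gadl1 (7.52 and 119.4 CPM) and 3 genes that resemble other genes in sequence, Tpm3-rs7, Gm10073 and Gm9843. After standardising, Gm2000 and Sprr1a joined the 12 highest genes, and the ribosomal protein genes Rpl24, Rpl36a, Rpl5 and Rps12 the 12 lowest.

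Genes that moved alike in every cell class were set apart next. Of 9887 genes measured in at least 6 classes (20 UMIs or more in the higher library of the class), 52 were at least 2-fold higher in IRI24h-TDN in every class in which they were measured (0.526%) and 82 at least 2-fold lower in every one (0.829%). Rps27, a protein of the small ribosomal subunit, had between 413.2 and 1925.7 CPM in the 11 classes of Sham and between 1.39 and 7.27 CPM in those of IRI24h-TDN, so the libraries did not overlap. Its log2 fold ran from -8.77 to -6.36 with a median of -7.83. Gapdh was between 224.5 and 1155.3 CPM in Sham and between 3.20 and 13.5 CPM in IRI24h-TDN (log2 fold -7.49 to -5.26, median -6.58), again lower in 11 of 11 classes. In podocyte-like cells, a Gapdh UMI was found in 73.6% of cells of Sham and 2.79% of IRI24h-TDN (19.4% and 0.311% after thinning). A gene used by nearly all cells for glycolysis was thus almost without UMIs in 1 of the libraries, and the rest of the pathway did not follow it, as the list of glycolysis genes below shows.

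Most of these genes have a near-identical copy elsewhere in the genome. A copy was counted when at least 100 of the last 500 bases of the transcript matched another annotated gene at 95% identity or more, in GENCODE M21 (GRCm38). Such copies were found for 28 of the 52 higher genes (53.9%) and 61 of the 81 annotated lower genes (75.3%), against 17.9% of the 9812 annotated genes measured in as many classes. One such pair is Rps27 and Rps27rt, whose coding sequences are printed here from GENCODE M21 because they differ at 0 of 255 bases. Rps27 lies on the minus strand at chr3:90212725-90213615 with 4 exons, and Rps27rt, with 1 exon, on the minus strand at chr9:114982453-114982707. For both genes these coordinates span the coding part alone.
Rps27: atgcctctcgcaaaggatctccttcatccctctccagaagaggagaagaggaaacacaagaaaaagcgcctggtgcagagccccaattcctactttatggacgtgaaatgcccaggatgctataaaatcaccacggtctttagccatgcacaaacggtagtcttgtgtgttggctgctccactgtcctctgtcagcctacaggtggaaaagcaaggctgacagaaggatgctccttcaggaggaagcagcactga
Rps27rt: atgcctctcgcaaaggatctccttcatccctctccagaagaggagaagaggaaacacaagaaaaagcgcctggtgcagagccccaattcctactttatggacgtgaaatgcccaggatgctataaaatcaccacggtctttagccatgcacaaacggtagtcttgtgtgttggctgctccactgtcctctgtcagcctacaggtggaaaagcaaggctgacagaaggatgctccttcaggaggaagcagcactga
Rps27 and Rps27rt moved in opposite directions. Rps27 had 791.1 CPM in Sham and 4.12 CPM in IRI24h-TDN, and Rps27rt 13.0 and 101.4 CPM, higher in 11 of 11 classes with log2 folds between 2.58 and 4.21. Summed, the pair had 804.1 and 105.5 CPM, a log2 fold of -2.93 in place of -7.58 and 2.96.

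The copy does not have to be exact. Rplp1, a protein of the ribosomal stalk (minus strand, 3 exons), and Gm10073 (minus strand, 1 exon) differ at 5 of 345 coding bases, an identity of 98.55%. The bases printed below span chr9:61913324-61913929 for Rplp1 and chr8:106573006-106573245 for Gm10073. The last 240 coding bases, from base 106 counted from the first base of the start codon, are shown because the 3′ end of a transcript is what this kind of library reads. Capitals mark the differences C245T, A246G and C258T, with the base of Rplp1 first.
Rplp1: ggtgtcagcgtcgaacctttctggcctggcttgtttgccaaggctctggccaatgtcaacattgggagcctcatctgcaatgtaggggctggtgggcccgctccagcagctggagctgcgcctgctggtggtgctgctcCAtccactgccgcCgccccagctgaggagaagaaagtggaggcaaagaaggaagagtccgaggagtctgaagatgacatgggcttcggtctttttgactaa
Gm10073: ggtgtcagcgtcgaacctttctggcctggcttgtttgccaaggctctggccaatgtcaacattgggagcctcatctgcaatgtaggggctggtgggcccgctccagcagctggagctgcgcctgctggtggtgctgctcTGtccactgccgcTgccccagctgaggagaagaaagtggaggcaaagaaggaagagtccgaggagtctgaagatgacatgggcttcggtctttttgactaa
Gm10073 was higher in 11 of 11 classes (log2 fold 3.62 to 5.67), with 10.17 and 205.0 CPM, while Rplp1 had 835.3 and 518.9 CPM. Together with its copy, the level was 845.5 and 723.9 CPM, a log2 fold of -0.22, and Gm10073 was a small part of that sum in Sham.

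Most of the higher genes with a copy were likewise not 2-fold higher as a sum. After each of the 28 was summed with its copies in the tables, 2 were still at least 2-fold higher, Gm5148 and Gm11808. Many of the 28 gave a small part of the sum in Sham, as Rpl9-ps6 did with 1.15 of 767.6 CPM. Such a sum can hardly become 2-fold higher through its rarer copy, so this count says little about the higher values themselves. Of the 23 lower genes whose copies were listed in the tables, 17 were still at least 2-fold lower after summing. Gapdh was one of them, at 543.0 and 62.02 CPM with the 4 of its 143 annotated copies that the tables listed (log2 fold -3.13). In 7 pairs, one copy was in the higher and the other in the lower group. Besides Rps27 and Rps27rt these included Rpl9 (766.4 and 23.04 CPM) with Rpl9-ps6 (1.15 and 27.0 CPM), the ribosomal fusion gene Fau (337.7 and 15.73 CPM) with Gm9843 (10.3 and 187.8 CPM), and cytochrome c (Cycs, 162.4 and 25.47 CPM) with Gm10053 (3.70 and 45.28 CPM). Fau and Gm9843 summed to 348.0 and 203.5 CPM (log2 fold -0.77), and Cycs and Gm10053 to a log2 fold of -1.23. The aligner and the handling of reads with several matches were not given in the sources used here, and their part in these values was not tested.

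**Figure D3:**
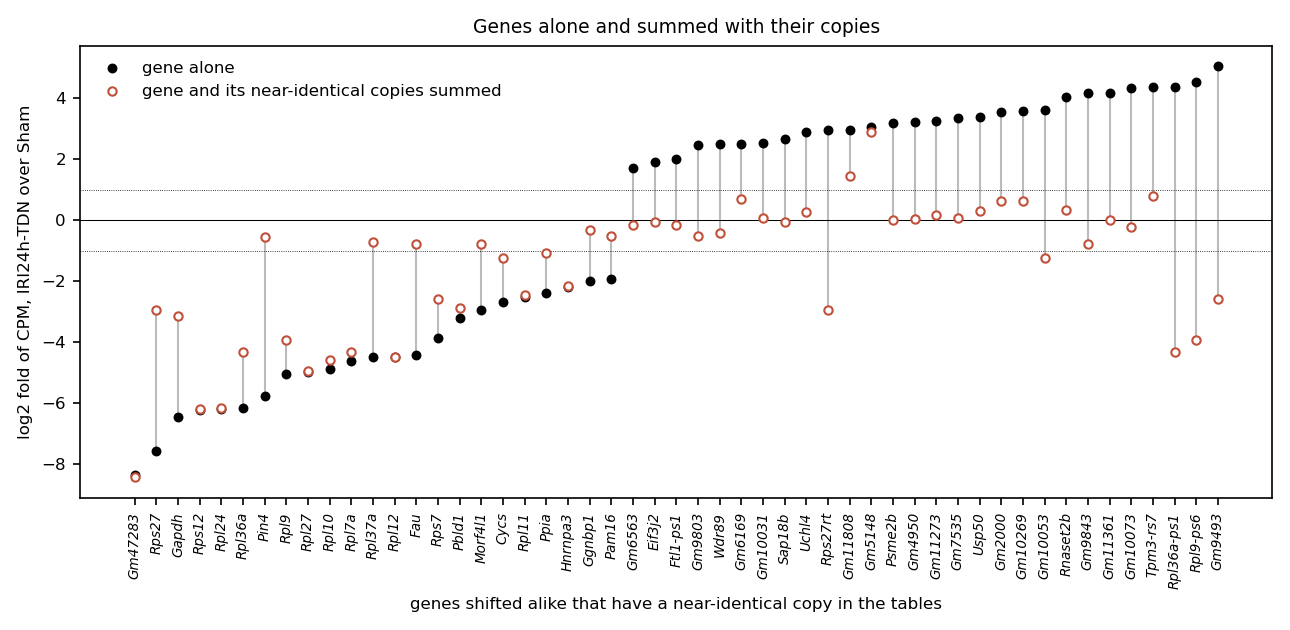
Log2 fold of IRI24h-TDN over Sham (y axis) for the genes shifted alike that have a near-identical copy in the tables (x axis), for the gene alone (black) and summed with its copies (open red), with dotted lines at 2-fold. Rps27 lies at -7.58 alone and -2.93 summed, Gm10073 at 4.33 alone and -0.22 summed.

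Of 82 ribosomal protein genes measured, 0 were 2-fold higher and 42 were 2-fold lower in the mixture (median log2 fold -1.14, against -0.04 over all genes, of which 11.1% were lower). A near-identical copy was found for 80 of the 82, with log2 folds from -7.86 to 0.55, and the 2 without one, at 0.26 and 0.67, are too few to compare with them. Rplp0, another protein of the ribosomal stalk, was at 183.0 and 268.0 CPM (0.55). In podocyte-like cells 0 of 81 were higher and 46 lower, read beside 4.22% of 11433 genes higher and 6.56% lower in that class. In PTEC-like cells 17 of 81 were higher, among them Rps3, Rpl4 and Rplp0, and 33 lower, beside 14% of 9610 genes higher and 12.6% lower.

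The remaining 24 genes that were higher in every measured class had no such copy. S100a6, a calcium-binding protein, was among them. It had 22.15 CPM in podocyte-like cells of Sham and 1554.5 CPM in those of IRI24h-TDN, 5.13 and 2926.9 CPM in PTEC-like cells, and 316.2 and 4454.3 CPM in PEC-like cells, and its log2 fold ran from 1.83 in ascending limb-like to 9.16 in PTEC-like cells. A UMI of S100a6 was found in 4.97% and 91.0% of podocyte-like cells (1.36% and 60.2% after thinning), and in 2.09% and 63.7% of connecting tubule and principal-like cells, while endothelial-like (52.0%) and fibroblast-like cells (48.2%) of Sham had it most often. Spp1, a secreted phosphoprotein, was highest in ascending limb-like cells, at 4710.2 and 42770.5 CPM, and had 1906.1 and 27665.4 CPM in distal convoluted tubule-like and 9.55 and 95.32 CPM in podocyte-like cells. Its log2 fold ran from 2.05 to 8.603, where the largest value, in endothelial-like cells, drew 46.4% of its UMIs from 1 cell.

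Timp1, another of these 24 genes, encodes an inhibitor of matrix proteases and had 1.01 and 24.94 CPM in the mixture. The tight junction gene Cldn4 was at 572.0 and 2048.3 CPM in connecting tubule and principal-like cells, and the endotoxin co-receptor Cd14 at 1138.4 and 2980.0 CPM in monocytic-like cells. Sprr1a, a cornified envelope protein, was at 3 UMIs in PTEC-like cells of Sham and 740 in those of IRI24h-TDN (232.3 CPM), where 19.7% came from 1 cell. Gadl1, with log2 folds between 3.28 and 5.46, was among the most even of them.

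Among the lower genes without a copy, 12 had their highest level in PTEC-like cells of Sham. Kap, an androgen-regulated secreted protein of the proximal tubule, had 35999.3 CPM in PTEC-like cells of Sham and 3956.5 CPM in those of IRI24h-TDN, a log2 fold of -3.19. It was also found in every other class of Sham, at 211.4 to 741.5 CPM, and in the other classes of IRI24h-TDN at 0 to 6.61 CPM. Podocyte-like cells, which should lack Kap, had a UMI of it in 75.4% of cells of Sham and 2.28% of IRI24h-TDN (18.6% and 0.309% after thinning), at a median depth of 8216 and 9332 UMIs. PTEC-like cells had one in 93.1% and 42.2%, at a median depth of 6947.5 and 13091 UMIs. The level of Kap outside PTEC-like cells thus followed its level in the mixture, 5295.9 and 156.9 CPM. Slc34a1, the phosphate transporter of the proximal tubule, showed the same order with 4907.7 and 541.1 CPM in PTEC-like, 548.5 and 14.62 CPM in PEC-like and 24.93 and 0.490 CPM in podocyte-like cells. Other genes of this kind were Ugt2b38, Acsm2, Ugt3a2, Slc22a6, Akr1c21, Fbp1, Cyp2j5, Lrp2 and Hao2, most of which encode enzymes and transporters of the proximal tubule.

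The PTEC marker list was also lower as a sum in classes that do not use it. It includes Kap, Slc34a1, Slc22a6, Lrp2 and Fbp1, which were chosen above as lower in every measured class. The list is thus not separate from that choice. Its summed level was 343.3 CPM in podocyte-like cells of Sham and 8.96 CPM in those of IRI24h-TDN, 614.8 and 2.09 CPM in endothelial-like cells, where 1 of the 14 markers had UMIs after IRI, and 857.1 and 31.55 CPM in monocytic-like cells. Over the classes other than PTEC-like and PEC-like it lay between 343.3 and 1280.9 CPM in Sham and between 2.09 and 146.4 CPM in IRI24h-TDN, without overlap. PEC-like cells held it at 4209.8 and 1679.4 CPM. Haemoglobin genes, whose transcripts come from red blood cells, were lower too, but were found mostly in podocyte-like cells of Sham. Hbb-bs had 300 UMIs in Sham (4.61 CPM) and 0 in IRI24h-TDN, at least 135.7-fold lower against a floor of 3 UMIs in the library, and Hba-a2 had 271 and 0 UMIs, at least 122.6-fold lower. Hba-a1 had 316 and 1 UMIs, so all 3 measured haemoglobin genes of 4 listed were lower, beside 11.1% of all genes of the mixture. The erythroid list summed to 22.68 and 0.0784 CPM in podocyte-like cells, and to at most 5.32 CPM in the other classes of Sham. Whether free RNA in the Sham suspension took part in these 12 genes was not tested.

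The 8 other lower genes were Kl, Afm, Ube2s, Tdrd5, Apela, Rhcg, Smim24 and Rab11fip4, and Tmem27 was not in the annotation. Kl (klotho), the co-receptor for the phosphate hormone FGF23, was at 2051.8 and 266.1 CPM in connecting tubule and principal-like cells and at 1666.2 and 176.0 CPM in distal convoluted tubule-like cells, the classes that use it. Tdrd5 was at 752.5 and 245.4 CPM in podocyte-like cells.

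**Figure D4:**
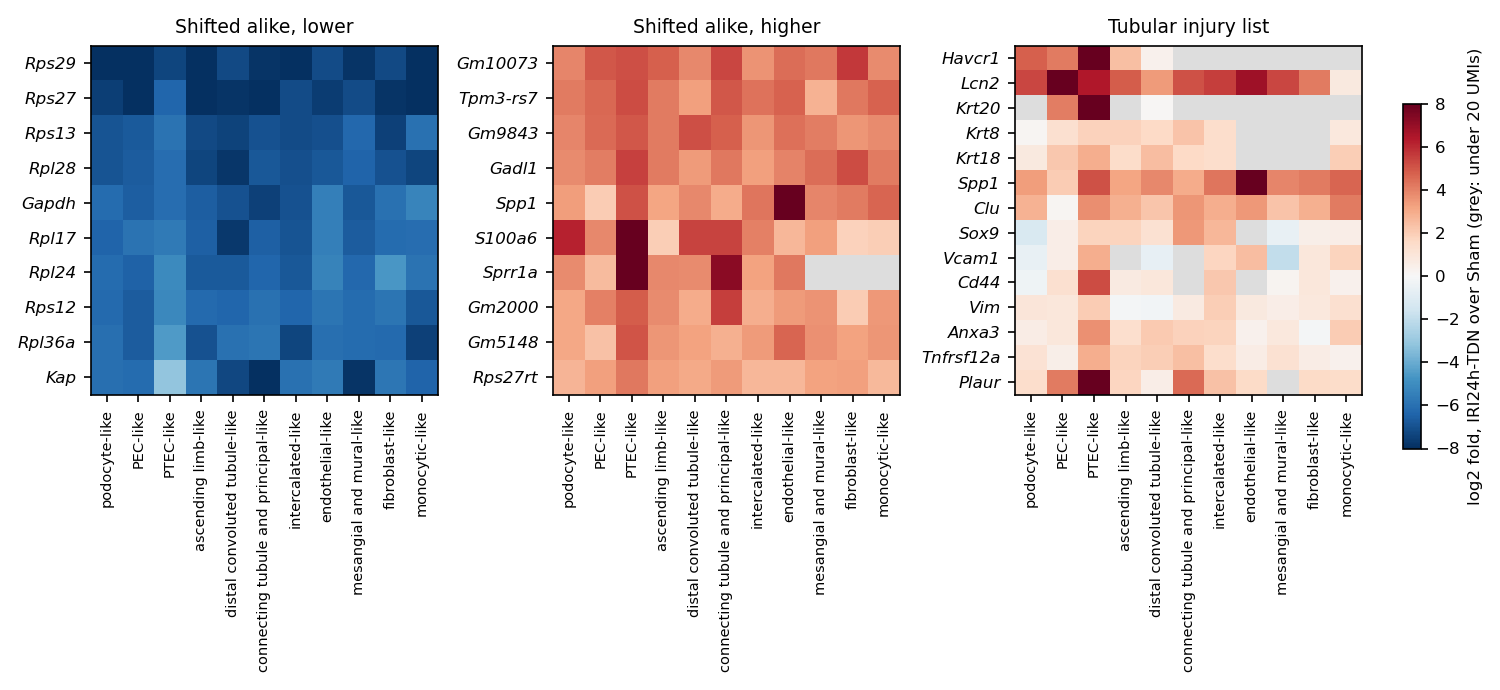
Log2 fold of IRI24h-TDN over Sham (colour, saturated at -8 and 8) in each class (columns) for the 10 lower and 10 higher named genes shifted alike and for the tubular injury list (rows), with grey where the higher library had under 20 UMIs. Rps27 is lower in 11 of 11 classes, while Havcr1 has its largest log2 fold, 8.93, in PTEC-like cells.

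The levels of the tubular injury genes ranged widely over the classes. Of the 14 tubular injury genes, 10 were 2-fold higher and 0 lower in the mixture (median log2 fold 1.55) and 10 and 0 after standardising (1.71). Over all genes 7.92% were higher in the mixture and 5.57% after standardising. In PTEC-like cells all 14 were 2-fold higher (median 3.71, against 0.13 over all genes of the class), beside 14% of 9610 genes. When PTEC-like cells were taken by marker score alone, 1102 and 116 cells, 11 of 12 measured were higher (median 2.44), beside 1072 of 9428 genes. In podocyte-like cells 5 of 11 were higher, Havcr1, Lcn2, Spp1, Clu and Tnfrsf12a, and Sox9 was lower, beside 4.22% of all genes higher and 6.56% lower.

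Havcr1 sat in PTEC-like cells after IRI, at 5.24 CPM in Sham and 2556.9 CPM in IRI24h-TDN (log2 fold 8.93). A UMI of Havcr1 was found in 3.17% and 67.8% of PTEC-like cells (0.501% and 47.5% after thinning), against 0.0220% and 1.87% of podocyte-like cells, which should lack it. PEC-like cells were at 7.88 and 139.1 CPM. This placement depended on the class assignment. Without the correction between libraries, Havcr1 led a cluster named PEC-like, with 21 cells of Sham and 292 of IRI24h-TDN. By marker score alone, PTEC-like cells had 5.26 CPM in Sham and 2392.2 CPM in IRI24h-TDN. Lcn2 was a gene of the distal nephron instead, at 207.3 and 5922.9 CPM in ascending limb-like cells, 373.9 and 4033.4 CPM in distal convoluted tubule-like cells and 81.64 and 2757.0 CPM in connecting tubule and principal-like cells. It was found in 11.3% and 98.7% of ascending limb-like cells and in 0.220% and 7.55% of podocyte-like cells. In PTEC-like cells it was at 0.546 and 47.08 CPM, and in monocytic-like cells at 61.32 and 105.7 CPM, a log2 fold of 0.79.

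Clusterin (Clu), a secreted chaperone, was highest in connecting tubule and principal-like cells, at 1618.3 and 18507.3 CPM, followed by ascending limb-like cells, at 1570.8 and 11173.8 CPM, and was at 392.9 and 435.2 CPM in PEC-like cells. The keratin Krt20, made by injured tubule cells, went from 0.328 to 358.5 CPM in PTEC-like and from 8.73 to 150.7 CPM in PEC-like cells. Krt18 and Krt8, its partners in simple epithelia, were at 26.83 and 94.01 CPM and at 35.95 and 79.8 CPM in the mixture. Sox9, a transcription factor of tubule repair, was at 46.28 and 41.41 CPM in the mixture (log2 fold -0.16) and at a standardised log2 fold of 0.77. Vimentin (Vim), an intermediate filament of mesenchyme and podocytes, was at 1364.6 and 2489.2 CPM in the mixture (0.87) and at 178.9 and 732.9 CPM in PTEC-like cells. Plaur, the urokinase receptor, had 0 UMIs in PTEC-like cells of Sham and 317 in those of IRI24h-TDN.

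The metallothioneins Mt1 and Mt2, the 2 measured members of their family, were both higher in the mixture (median log2 fold 3.36) and after standardising (2.48). Over all genes 7.92% and 5.57% were higher by these values. Mt1 was at 1441.0 and 13633.4 CPM in ascending limb-like cells and 63.36 and 1986.9 CPM in PTEC-like cells, but at 323.7 and 353.3 CPM in podocyte-like cells. Sprr2f was found in 0.418% and 54.4% of connecting tubule and principal-like cells (35.6% of those of IRI24h-TDN after thinning) and in 1.11% of podocyte-like cells of IRI24h-TDN.

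**Figure D5:**
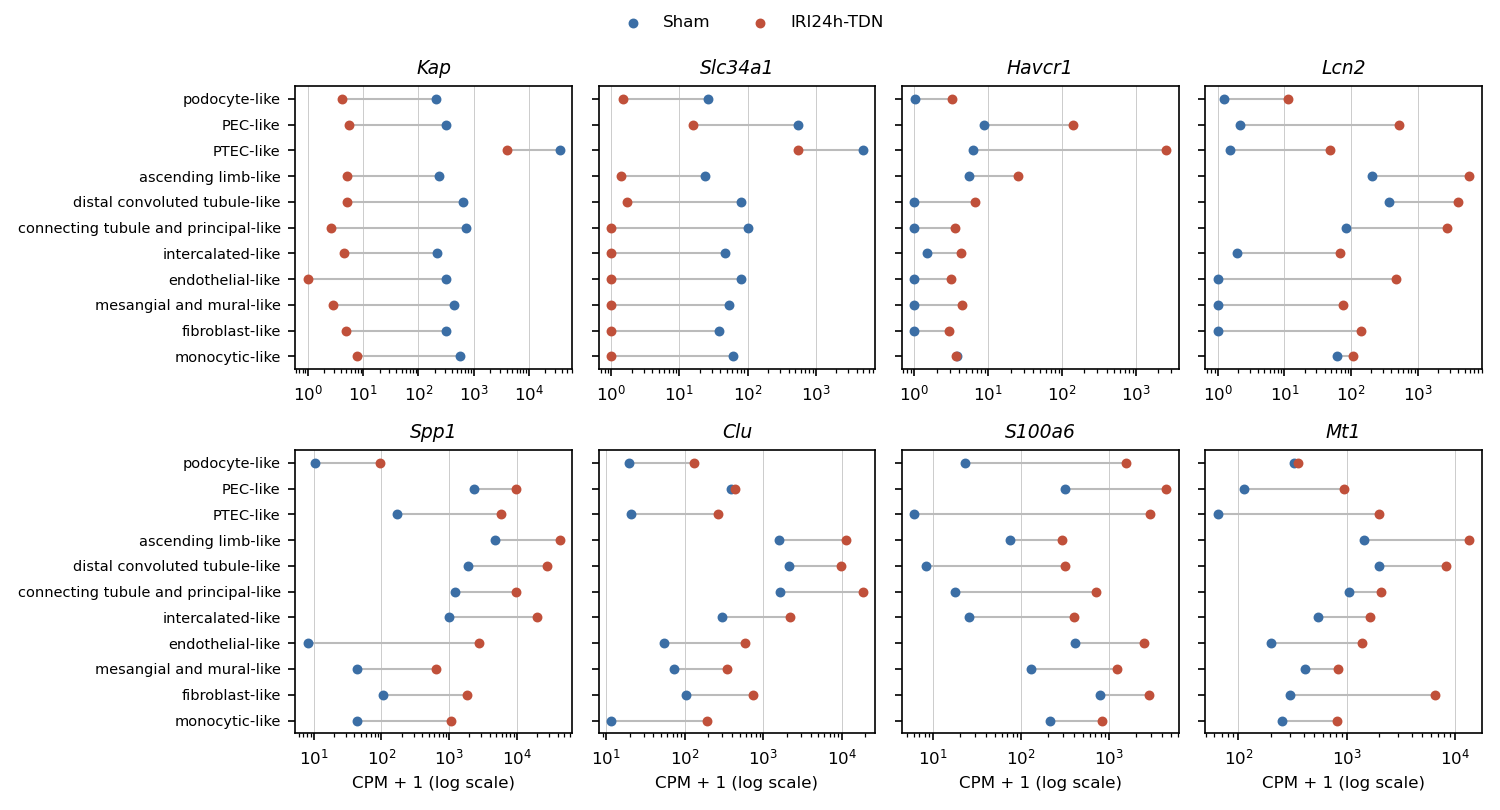
Level of 8 genes in each class, in CPM + 1 on a log axis, for Sham (blue) and IRI24h-TDN (red), with a line joining both libraries. Kap is lower in 11 of 11 classes, S100a6 and Spp1 are higher in 11 of 11, and Havcr1 stands out in PTEC-like cells and Lcn2 in the distal nephron classes.

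Podocyte-like cells, the largest class, kept their markers in part. Nphs1 (nephrin) was at 3619.7 and 2226.8 CPM in this class (log2 fold -0.70). Wt1 itself, the transcription factor behind the label, was at 728.7 and 672.8 CPM in the mixture (-0.12). A gene was counted as set apart in a class when it was 2-fold different there, with at least 50 UMIs and 50 CPM in the higher library, and its log2 fold differed by at least 2 from the median over the other classes. Of 39999 gene and class pairs 307 were higher in this way (0.768%) and 275 lower (0.688%), 508 genes in all. These pairs depended on the class assignment: without correction between libraries, which left 12 of the 199 PTEC-like cells of IRI24h-TDN in that class, 188 were higher and 152 lower, and 106 and 77 of those were among the reported pairs. Podocyte-like cells held 13 of the higher pairs and 1 of the lower. The Slit-Robo GTPase-activating gene Srgap3 went from 4.99 to 71.54 CPM in podocyte-like cells (log2 fold 3.84, median 0.16 over the other classes), the serine protease Prss23 from 9.92 to 96.64 CPM, and the cell cycle gene Ccnd1 (cyclin D1) from 26.09 to 196.4 CPM. The single lower gene was Neat1, a long noncoding RNA of nuclear paraspeckles, at 427.4 and 54.4 CPM (log2 fold -2.97, against -0.88).

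PTEC-like cells held 93 higher and 62 lower pairs. The carbohydrate-binding galectin Lgals3 was at 3.39 and 1460.5 CPM there (log2 fold 8.75), and the AP-1 factor Fosl1 had 3 and 174 UMIs. On the lower side the angiotensin-converting enzyme Ace was at 109.4 and 4.71 CPM (log2 fold -4.54, median 1.37 over the other classes), the transporter Slc16a4 at 99.74 and 3.14 CPM and Afap1l1 at 57.24 and 3.14 CPM, and Inmt had 4405 UMIs and 1 UMI. PEC-like cells held 6 higher and 5 lower pairs, of which 3 and 1 drew over 20% of their UMIs from 1 cell, among them Lcn2 (24.1%), the lysozyme gene Lyz2 (70.4%), Krt19 (36.3%) and, lower, S100g (65.1%). Plaur was at 6.48 and 114.0 CPM in PEC-like cells, the claudin Cldn15 at 65.17 and 3.75 CPM, Lbp at 101.1 and 29.24 CPM and the integrin Itga9 at 81.5 and 17.99 CPM.

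The distal segments differed from each other as well. In ascending limb-like cells (14 higher, 22 lower) the Ras-related gene Rasd1 went from 5.70 to 417.5 CPM (log2 fold 6.20), Olfm4 from 6.84 to 166.1 CPM, Sdc1 from 12.53 to 213.7 CPM and S100g from 69.48 to 506.0 CPM. Egf (epidermal growth factor, made by these segments) was at 9751.8 and 158.3 CPM (-5.95), Tmem52b at 1407.9 and 107.5 CPM, Nccrp1 at 573.0 and 15.95 CPM and Col5a2 at 290.5 and 70.97 CPM. In distal convoluted tubule-like cells (19 higher, 13 lower), Egf was at 4025.6 and 153.9 CPM (-4.71), the defensin Defb1 at 4579.1 and 1442.1 CPM, Cables1 at 151.6 and 19.51 CPM and S100g at 2923.2 and 148.9 CPM, while the transcription factor Emx2 was at 10.3 and 66.36 CPM. Sema3c had 2 and 695 UMIs there, Cxcl10 33 and 759, and Ccl5 0 and 420, of which 34.1% were in 1 cell. In the mixture Egf was at 437.7 and 288.3 CPM (log2 fold -0.60), a smaller difference than within either class.

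In connecting tubule and principal-like cells (24 higher, 6 lower) the cytokine Lif had 3 and 393 UMIs, the keratin Krt19 was at 3.10 and 290.4 CPM, hexokinase 2 (Hk2) at 3.62 and 98.93 CPM and Ociad2 at 5.68 and 115.9 CPM. S100g (calbindin D9k), a calcium buffer of this segment, was at 14766.8 and 2649.4 CPM, Kng2 at 366.3 and 105.1 CPM and AI838599 at 117.3 and 15.61 CPM, and 46.3% of the UMIs of Kap in this class of Sham were in 1 cell. In intercalated-like cells (26 higher, 3 lower) the neuropeptide gene Nmb went from 2.88 to 167.7 CPM (5.86), the interferon-induced GTPase Iigp1 from 13.93 to 159.8 CPM, the interferon-induced Oasl2 from 2.40 to 67.4 CPM and Guca2b from 8.17 to 96.32 CPM. The reductase Cbr2 was at 296.5 and 32.04 CPM and the glycogen phosphorylase Pygm at 155.2 and 32.66 CPM.

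Monocytic-like cells (12 higher, 41 lower) held fibronectin (Fn1) at 41.59 and 670.7 CPM (log2 fold 4.01), the matrix protein Ecm1 at 4.93 and 144.4 CPM, the scavenger receptor Lrp1 at 31.72 and 156.1 CPM and Cbr2 at 11.98 and 80.45 CPM. The chemokine Ccl5, made by lymphocytes and macrophages, was at 738.0 and 32.54 CPM (-4.50), and the interferon-induced Ifit1 at 336.2 and 12.06 CPM (-4.80). S100a9 and S100a8, of the neutrophil list, were at 667.5 and 70.04 CPM and at 665.4 and 101.4 CPM. Markers of other blood cells were in this class as well. The neutrophil list summed to 1562.0 CPM in Sham and 257.7 CPM in IRI24h-TDN with all 6 markers present in both, and the lymphocyte list to 327.1 CPM (8 of 10 markers with UMIs) and 10.24 CPM (4 of 10), and their part in these values was not tested. Outside this class the lymphocyte list stayed at or under 14.81 CPM in both libraries, and the neutrophil list at or under 58.87 CPM.

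The classes with few cells held many pairs that rested on few UMIs or cells. Those of fibroblast-like cells also depended on the class assignment. Without the correction between libraries 73 of the 81 cells of Sham became PEC-like, and by marker score alone 57 did. The PEC marker list summed to 3543.6 CPM in fibroblast-like cells of Sham and 2162.3 CPM in those of IRI24h-TDN, and its part in these pairs was not tested. Fibroblast-like cells (81 and 40 cells) held 82 higher and 98 lower, of which 28 and 8 drew over 20% of their UMIs from 1 cell, as Cyp2e1 (100%) and Pck1 (96.0%) did. The phosphatase Alpl had 3 and 443 UMIs and the adhesion receptor Adgrd1 3 and 231, and on the lower side the transcription factor Pax8 had 228 UMIs and 1, Osr2 126 and 0, the PEC marker Cldn1 111 and 1, and Cadm4 57 and 3. Endothelial-like cells held 15 higher pairs, with Fam107a at 28.87 and 167.2 CPM, 8 of them with over 20% of their UMIs in 1 cell (Klk1 79.0%, Inhba 100%), and 17 lower, with the antigen presentation gene Cd74 at 142 and 0 UMIs (204.9 CPM in Sham), Pak1 at 366.6 and 52.24 CPM and Rdh1 at 50 and 3 UMIs. Mesangial and mural-like cells held 3 higher, Prkar2b (10.68 and 52.91 CPM), the lipid carrier Fabp4 (14.84 and 81.83 CPM) and Olfr1033 (154.3 and 328.1 CPM), and 7 lower, of which Igha (79.2%), Jchain (82.6%) and Cxcl10 (52.1%) came mostly from 1 cell and Cd34 was at 50.45 and 4.95 CPM.

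The counts of the stress and inflammation lists in the mixture are read beside 7.92% of all genes higher and 11.1% lower. Standardised counts are read beside 5.57% higher and 8.87% lower. Counts in podocyte-like cells are read beside 4.22% and 6.56%, and those in PTEC-like cells beside 14% and 12.6%. Of 18 cytokine and chemokine genes 6 were 2-fold higher and 2 lower (median log2 fold 0.36), which became 3 and 5 after standardising. Cxcl2, a neutrophil-attracting chemokine, was at 98.96 and 397.2 CPM (log2 fold 2.01, standardised 0.50), and Il1b, the interleukin of monocytes, at 62.52 and 223.9 CPM (1.84, standardised 0.28). In monocytic-like cells, which carried most of both, Cxcl2 was at 4048.8 and 5442.7 CPM and Il1b at 2498.8 and 2957.0 CPM. Cxcl1 was at 77.34 and 171.5 CPM in the mixture and at 12.02 and 275.6 CPM in PTEC-like cells. Cxcl10 (119.6 and 54.07 CPM) and Ccl5 (22.13 and 10.95 CPM) were the 2 lower ones.

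Of 12 interferon response genes 0 were higher and 2 lower, Rsad2 (47.49 and 17.18 CPM) being one of them, in the mixture (median log2 fold -0.19), and 1 higher and 5 lower after standardising. Of 22 immediate early genes 5 were higher and 0 lower (median 0.43), namely Fosl1, Ier3, Zfp36, Gadd45b and Socs3, and 2 and 0 after standardising. Socs3, a brake on cytokine signalling, was at 140.2 and 348.5 CPM. In podocyte-like cells 7 of 21 were higher and 0 lower, beside 4.22% and 6.56% of all genes. In PTEC-like cells 9 were higher and Jun and Dusp1 were lower, beside 14% and 12.6%. Among 13 heat shock genes 0 were higher and 3 lower (median -0.78), the chaperone genes Hspa1a (420.1 and 186.6 CPM), Hspd1 (208.2 and 102.9 CPM) and Hspe1 (195.4 and 37.89 CPM), while in PTEC-like cells the small heat shock proteins Hspb1 and Cryab were higher.

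Of 11 NRF2 targets 4 were higher and 2 lower in the mixture (median 0.78), and 4 and 0 after standardising. Haem oxygenase (Hmox1) was at 35.95 and 129.6 CPM in the mixture, 70.57 and 396.1 CPM in PTEC-like cells and 72.07 and 448.5 CPM in intercalated-like cells. Of 12 p53 targets 1 was higher, the cell cycle inhibitor Cdkn1a (63.18 and 176.4 CPM), and 0 lower (median 0.02). Of 12 genes of the unfolded protein and integrated stress responses 3 were higher, Trib3, Chac1 and Asns (4.78 and 10.68 CPM), and Sdf2l1 was lower (median -0.19). Asparagine synthetase (Asns) was at 1.20 and 74.39 CPM in PTEC-like cells. Of 12 hypoxia genes 0 were higher and 1 lower, Ndrg1 at 472.6 and 230.4 CPM (median -0.11), and 0 and 0 after standardising.

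The metabolic lists are read beside the same 7.92% higher and 11.1% lower over all genes of the mixture. The shares given above for standardised counts and for podocyte-like and PTEC-like cells apply here too, such as 12.6% lower in PTEC-like cells. Of 16 glycolysis genes 2 were higher, Hk2 (4.98 and 16.93 CPM) and Slc16a3, and Gapdh was the single lower one (median log2 fold 0.51), in the mixture and after standardising, in podocyte-like cells and in PTEC-like cells. Of 16 fatty acid oxidation genes 0 were higher and 2 lower, the peroxisomal genes Ehhadh and Acaa1b (median -0.15), and in PTEC-like cells 4 were lower, Acadm among them. Of 77 nuclear genes of oxidative phosphorylation 0 were higher and 8 lower (median 0.03), and of 13 mitochondrially encoded genes 1 was higher, mt-Atp8, and 0 lower (median 0.37, standardised 0.05). The 16 mitosis genes measured had 0 higher and 0 lower in the mixture (median 0.01), and after standardising Cdk1 and Kif11 were higher and Cenpf lower. The standardised values leave out the unnamed cluster led by the mitosis genes Ube2c, Top2a and Birc5 (24 cells of Sham and 40 of IRI24h-TDN).

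Of 17 cytoskeleton genes 3 were higher, Tuba1c, Tubb6 and Tagln2 (296.6 and 757.7 CPM), and 0 lower in the mixture (median 0.75), beside 7.92% and 11.1% of all genes. In PTEC-like cells 12 of 17 were higher (median 1.39), beside 14% of all genes. Among them were thymosin beta 10 (Tmsb10, 28.4 and 189.3 CPM) and the tubulin Tubb2b (12.89 and 61.21 CPM). Of 16 genes often used as a reference 0 were higher and 2 lower, Gapdh and the cyclophilin gene Ppia (180.7 and 34.3 CPM), with a median of 0.17. Ppia has near-identical copies too. Actb (4651.7 and 6691.1 CPM, log2 fold 0.52), Tbp (0.02), Ywhaz (0.21) and Eef1a1 (0.38) were within 2-fold. Of 3 measured nuclear long noncoding RNAs Neat1 (375.5 and 99.18 CPM) and Kcnq1ot1 (116.2 and 46.19 CPM) were lower, and Malat1 was at 4142.5 and 2722.0 CPM (-0.61).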

How the data were processed

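Single cells of kidney cortex were captured on BD Rhapsody, and the authors deposited the UMI counts of every library as a table of barcodes and genes, not normalized (whole numbers in every cell of the tables). The submitters' processing notes name CASAVA 1.8, UMI-tools, Seurat and the mm10 build. The aligner and the annotation were not given in the sources used here. Barcodes with under 200 genes or over 50% mitochondrial UMIs were left out. The cells of 3 libraries were clustered on 2000 variable genes without mitochondrial, ribosomal protein and haemoglobin genes and other biology list genes that are not markers (30 principal components, Harmony correction with theta 2 written in numpy 2.4.6, 15 neighbours, leidenalg 0.10.2 with igraph 0.11.9 at resolution 1), in Python 3.11.15 with scipy 1.17.1, pandas 2.3.3 and scikit-learn 1.9.0. Clusters were named from 11 of 14 marker lists, and classes with at least 30 cells in both libraries were used. According to the paper, multiplets were left out during cell selection. An alternative here left out the top 6% of doublet scores of a scrublet procedure. Unnamed clusters were led by Igha, Igkc and Xcr1 or by the mitosis genes Ube2c, Top2a and Birc5.

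UMIs were summed per library and class and scaled to CPM. Log2 folds are IRI24h-TDN over Sham, with a floor of 3 UMIs for a library or class at fewer, and their intervals are conditional binomial. Shares have Clopper-Pearson intervals. With 1 library per condition no p-value was computed. A floor of 3 UMIs is 0.0461 CPM in Sham and 0.0340 CPM in IRI24h-TDN. Copies were found with blastn 2.17.0+, figures drawn with matplotlib 3.10.9, and edgeR 4.0.16 in R 4.3.3 gave an alternative scaling. The standardised folds and the calls of genes shifted alike or set apart in a class were tested on simulated class sums with known changes. That simulation took the classes as given, so it cannot test the clustering or the class names.

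The text names the 12 highest and 12 lowest genes of the summed and standardised folds (50 UMIs and 50 CPM in the higher library), 10 genes per direction shifted alike, 4 per class and direction set apart, list members, Gapdh and Rps27. Other genes were chosen after their values were seen. Some genes that the rule names are not reported here. The members and lists were chosen with earlier results of these data known.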

Additional observations from a re-analysis of the deposited data

Results flagged for a closer look

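For 9 genes the log2 fold of IRI24h-TDN over Sham was at least 2 in 1 class and at most -2 in another, among classes with at least 100 cells in both libraries. The difference between classes was not tested for any of them, since each condition had 1 library. S100g, a calcium buffer of the distal nephron, had a log2 fold of 2.86 in ascending limb-like cells and -2.48 in connecting tubule and principal-like cells, where its level in Sham was far higher. In intercalated-like cells Ly6a was at 5.26, against -2.0 in PTEC-like cells, and Pigr, the transporter of immunoglobulins across epithelia, at 4.51 against -3.38. The interferon-induced Iigp1 was at 3.52 in intercalated-like and -2.05 in PEC-like cells, and Cbr2 at 2.75 in monocytic-like and -3.21 in intercalated-like cells. Ldhd, a lactate dehydrogenase of mitochondria, was at 3.23 in connecting tubule and principal-like and -2.12 in PTEC-like cells, and the metal transporter Slc39a8 at 2.46 in ascending limb-like and -2.45 in PTEC-like cells. In endothelial-like cells Fam107a was at 2.53, against -3.24 in ascending limb-like cells, and Cyp26b1, which degrades retinoic acid, at 2.04 against -3.24 in PEC-like cells.

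The library IRI24h-TD, which the comparisons above do not use, held podocyte-like cells captured apart from the mixture. Set against the same cells of Sham, 45 of the 52 genes higher in every class and 82 of the 82 genes lower in every class were again at least 2-fold different in the same direction. Over all 11791 genes measured in that comparison 4.47% were 2-fold higher and 6.95% lower. Both comparisons use the same Sham cells, in which the genes were chosen, so these counts are a description only.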

How the results depend on the processing

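No paired analysis was possible because each condition was 1 library and the labels carry no replicate numbers. Of 693 values recomputed under the alternatives 605 stayed within their limits, 85 moved and 3 turned direction; the cause was not tested. The 3 were log2 ratios of shares: podocyte-like -0.1129 and fibroblast-like 2.535 without Harmony correction, and fibroblast-like 0.9018 by marker score alone. The ratio of median UMIs per cell (1.18) became 1.146 with at least 500 genes and at most 20% mitochondrial UMIs and 1.278 over all barcodes. Genes lower in the mixture numbered 1060 with a minimum of 200 UMIs. Genes shifted alike numbered 84 higher at 1.5-fold, 20 higher and 42 lower at 4-fold, and 124 lower with 4 classes. Pairs set apart in a class numbered 578 higher and 537 lower with a log2 difference of 1.5, 113 and 82 with 3, 188 and 152 without Harmony correction (106 and 77 of them shared with the reported pairs), and 204 and 158 without fibroblast-like and distal convoluted tubule-like cells, a choice made after seeing the data. TMM factors shifted all log2 folds of the mixture by 0.05, those of PTEC-like cells by -0.17 and those of monocytic-like cells by -0.17. Without genes that have near-identical copies, also chosen after seeing the data, 967 genes were higher and 1329 lower in the mixture. Depth limits a gene at 0 UMIs to under 0.0461 CPM in Sham and 0.0340 CPM in IRI24h-TDN.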

Other observations

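Among 81 annotated genes lower in every measured class 61 have a near-identical copy, and among the 20 without one 12 were highest in PTEC-like cells of Sham. Both kinds were also lower in IRI24h-TD. Beside them, the median number of genes expected at 1000 UMIs per cell was 586.7 and 624.3 in PTEC-like cells and 582.4 and 654.2 in monocytic-like cells of Sham and IRI24h-TDN, although it was 686.3 and 686.1 over all cells. Median UMIs per cell were higher in IRI24h-TDN in 10 of 11 classes, and in fibroblast-like cells they were 3039 and 12253. Mesangial and mural-like cells were the exception, with 5449 and 5016.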
